A study of Mus musculus with 12 samples.

Results

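Ribosome footprints of hearts without *Rpl3l* were compared with those of wild-type hearts, gene by gene and function by function. The tissue was the left ventricle of adult mice. The 2 groups were wild type (WT) and Rpl3l-/- (KO), with 3 footprint libraries each, which the series' design text calls biological triplicates. Strain, age, sex and the design of the knockout allele are not given in the sources used here, nor whether each library came from a single heart. Lysates were made in cycloheximide, which holds ribosomes in place, and RNase I removed the mRNA that ribosomes did not cover. The fragments left over (ribosome-protected fragments, called footprints here) were counted for 21669 transcript names. The members are the 7951 genes whose mean over the 6 libraries was 50 counts or more, and they held between 98.0% and 98.2% of the footprint counts of each library. A matched set of 3 WT and 3 KO poly(A) RNA libraries gave the mRNA level of the same genes.

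*Rpl3l* and *Rpl3* encode paralogous proteins of the large ribosomal subunit. RPL3 sits close to the peptidyl transferase centre in ribosomes of most tissues, while *Rpl3l* is expressed mainly in heart and skeletal muscle. A footprint count reflects both how much of an mRNA is present and how many ribosomes sit on it, so a difference in footprints alone does not tell one from the other. In bulk tissue, fewer cells of a type and fewer footprints per cell cannot be told apart either.

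The footprint libraries held 3827862 to 4948766 counts in WT and 4704689 to 7474602 in KO, so that KO 1 (7474602) and KO 2 (6910017) held more than any WT library. With 3 libraries against 3 an exact two-sided permutation test of the totals cannot give a p below 0.1, and it gave 0.2. Levels below are in CPM, counts relative to the scaled size of the library, and 3 counts, taken as the detection floor, corresponded to 0.404 to 0.791 CPM, for counting error only. Across the members, log2 levels correlated at 0.966 to 0.973 between KO libraries, 0.937 to 0.960 between WT libraries and 0.942 to 0.973 across genotypes (Pearson's r over genes, which are not independent). WT 3 was closer to the KO libraries (0.971 to 0.973) than to WT 1 (0.949) or WT 2 (0.960). The coefficient of variation between replicates was 23.6%, and 20.3% without WT 1. All 12 ventricular cardiomyocyte markers looked for were measured, with a summed level of 151315 to 170322 CPM per library.

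*Rpl3l* was the only gene that changed at an adjusted p under 0.05 in edgeR's quasi-likelihood test after the filter on low counts. It was 1 of 7950 members tested (0.0126%) and 1 of all 11153 genes tested (0.00897%), and at an unadjusted p under 0.05 there were 541 members (6.81%) and 665 genes in all (5.96%). DESeq2, run on the same genes, called 5 genes, 4 of them members. The members were split evenly, with 4004 higher and 3946 lower in KO and a median log2 fold change of 0.00. The quartiles lay at -0.17 and 0.16, and the absolute log2 fold change was above 1 in 34. Their median standard error (SE) was 0.21. In 537 members (6.75%) each of the 3 KO libraries was higher than each WT library, and in 468 (5.89%) each was lower. When each library was left out in turn, 4381 members (55.1%) kept the sign of their fold change in all 6 fits. Genes just inside the count limit, with means of 50 to 60, had a median SE of 0.35 (524 genes), and those just outside it, with means of 40 to 50, had 0.39 (581 genes). The 1 member not tested in this fit, because the filter on low counts removed it, was *Cyp1a1*. This xenobiotic-metabolising cytochrome P450 had 1566, 29 and 4 counts in WT and 0, 3 and 6 in KO.

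**Figure D1:**
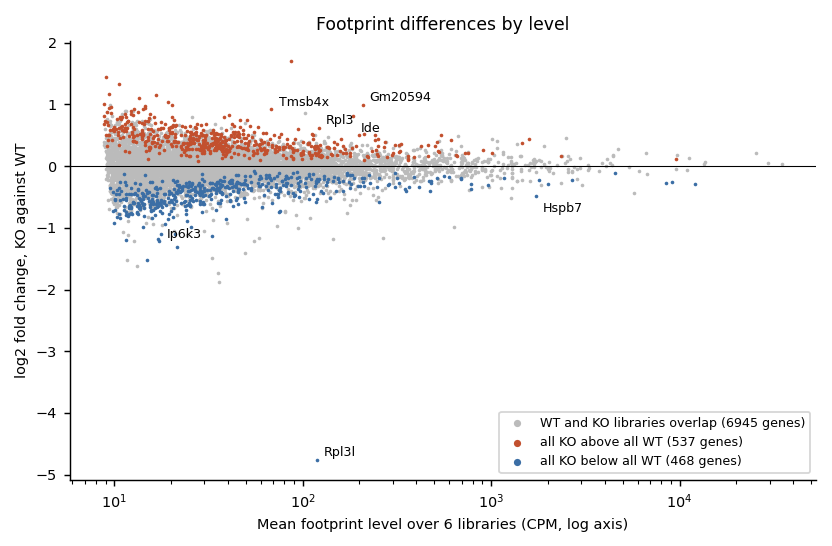
Log2 fold change of footprints, KO against WT, plotted for the 7950 tested members against the mean level over 6 libraries in CPM (log axis). Red points (537) had every KO library above every WT library, blue points (468) had all below, and *Rpl3l* at -4.76 lies alone at the bottom.

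The footprints of the targeted gene were nearly absent in KO. *Rpl3l* (transcript Rpl3l-202, chromosome 17 from 24727820 to 24736143, plus strand, GRCm38, GENCODE M21) had 193, 260 and 234 CPM in WT 1 to 3 and 8.76, 4.40 and 12.8 CPM in KO 1 to 3. Its log2 fold change was -4.76 (SE 0.28, edgeR adjusted p = 2.5e-07), and it lay between -5.11 and -4.43 whichever library was left out. *Rpl3* (Rpl3-201, chromosome 15 from 80077791 to 80083406, minus strand) had 68.1, 120.2 and 99.2 CPM in WT and 120.2, 196.5 and 124.3 in KO. The highest WT library and the lowest KO library of *Rpl3* were level, and its log2 fold change of 0.62 (SE 0.22) had an adjusted p of 0.83 in edgeR. The fold change lay between 0.35 (without KO 2) and 0.82 (without WT 2) with a library left out. In the edgeR fit with no filter on low counts it was 0.63, with an adjusted p of 0.032, so the call of *Rpl3* depended on the filter. The mRNA log2 fold change was -3.10 (SE 0.18) for *Rpl3l*, the 1 gene called among 8379 tested in RNA (0.0119%), and 0.63 (SE 0.18) for *Rpl3*.

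Because the genes are paralogs, their coding sequences were compared at footprint scale, in stretches of 28 bases. Of 1197 such stretches of *Rpl3l*, 0 occurred in *Rpl3* unchanged and 12 came within 2 mismatches of it, while the median stretch had 7. The closest pair within single exons is shown with the mismatched base in capitals. It covers coding bases 139 to 166 of both genes, in exon 2 of each (chr17:24728452-24728479, plus strand, and chr15:80082420-80082447, minus strand, GRCm38).
Rpl3l: ctgggCtacaaggctggcatgacccaca
Rpl3: ctgggTtacaaggctggcatgacccaca
No 28-base word of the *Rpl3l* transcript was found in a transcript of another gene in GENCODE M21. Of the words of *Rpl3*, 88.1% also occurred in other genes, most often in the pseudogenes *Rpl3-ps1*, *Gm5879* and *Rpl3-ps2*. How reads that match several genes were counted is not given in the sources used here, so the *Rpl3* count is the less certain of the pair.

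Among members whose genotypes did not overlap, the 5 of smallest p in each direction were named. *Hspb7*, a small heat shock protein of heart and muscle (Hspb7-201, chromosome 4 from 141420779 to 141425311, plus strand), was lower. It had 2036, 2007 and 1985 CPM in WT and 1451, 1384 and 1476 in KO. The gap between the groups was many times the spread within either. The log2 fold change was -0.48 (SE 0.10, edgeR adjusted p = 0.52), and it stayed between -0.50 and -0.46 whichever library was left out. Its mRNA log2 fold change was -0.01, with an SE of 0.31.

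*Ide*, which encodes the insulin-degrading enzyme, had the smallest p among the higher genes (Ide-201, chromosome 19 from 37268743 to 37330613, minus strand). Its levels were 142, 145 and 115 CPM in WT and 225, 237 and 247 CPM in KO. All KO libraries thus stood well clear of the WT libraries, at a log2 fold change of 0.82 (SE 0.14, edgeR adjusted p = 0.10) and 0.66 (SE 0.21) in mRNA. *Slc7a1*, a transporter of arginine and lysine, had 37.2, 36.4 and 39.8 CPM in WT and 61.4, 68.9 and 59.1 CPM in KO (log2 fold change 0.74, SE 0.17, edgeR adjusted p = 0.57). Its mRNA was too low to be tested.

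*Tmsb4x*, which encodes the actin monomer-binding peptide thymosin beta 4, had a log2 fold change of 0.92 (SE 0.23), and its WT libraries spread from 28.2 to 63.4 CPM against 74.1 to 102 CPM in KO. *Inka2*, which encodes an inhibitor of the kinase PAK4, had 1.16 (SE 0.30), with 10.3 ± 3.4 CPM in WT against 22.9 ± 4.7 CPM in KO (mean ± SD, n = 3 each). The remaining higher gene, *Gm20594*, had 1.00 (SE 0.21). Of the 422 28-base words of its transcript, 49 also occur in *mt-Rnr2*, the ribosomal RNA of the large mitochondrial subunit, so its count is uncertain.

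Besides *Rpl3l* and *Hspb7*, the lower genes were *Ip6k3*, *1700030K09Rik* and *Med13l*. *Ip6k3*, an inositol hexakisphosphate kinase of muscle, had 27.4, 24.8 and 20.5 CPM in WT and 8.35, 12.0 and 10.9 CPM in KO. Its log2 fold change was -1.22 (SE 0.26, edgeR adjusted p = 0.52). *Med13l*, a subunit of the Mediator kinase module, had -1.13 (SE 0.25), with WT 1 at 64.4 CPM, WT 2 and WT 3 at 38.2 and 33.0, and KO between 17.6 and 25.2. *1700030K09Rik* had -1.31 (SE 0.29) and a wide spread in WT, from 19.7 to 43.8 CPM. DESeq2 gave adjusted p-values of 4.9e-05 for *Ide* and 0.0073 for both *Hspb7* and *Gm20594*, so the call of these 3 genes depended on the tool.

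**Figure D2:**
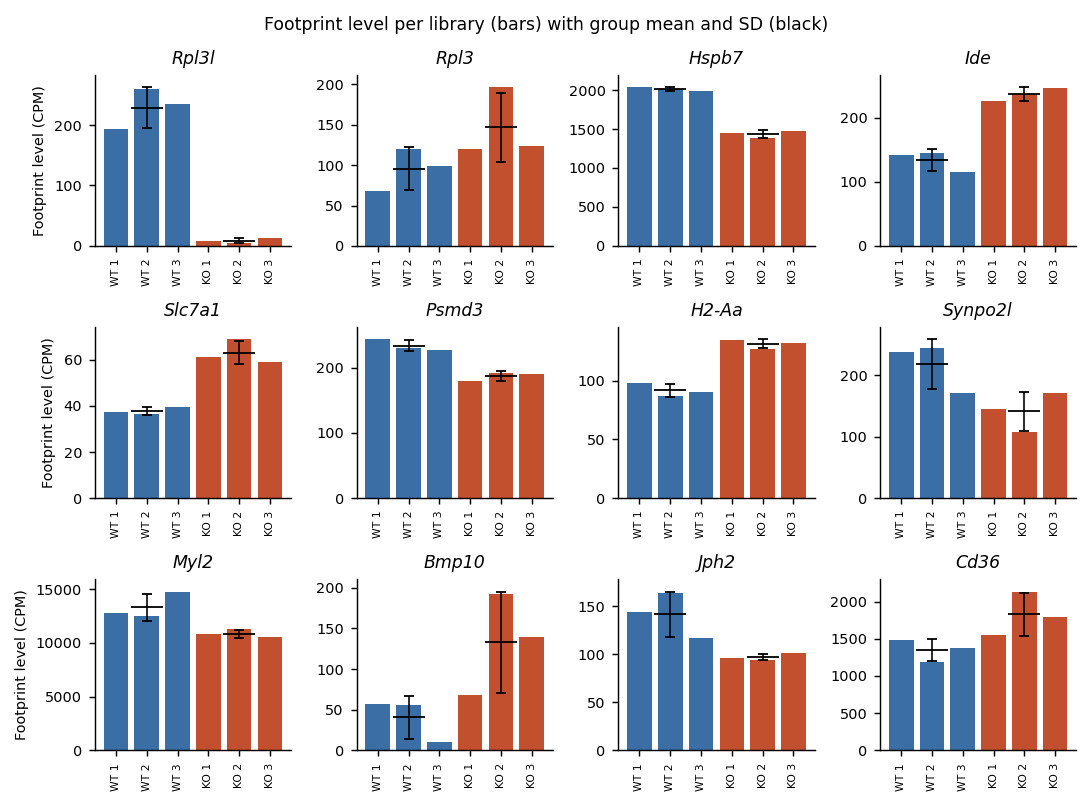
Footprint level in CPM of 12 named genes in each library (bars, blue for WT and red for KO), with the group mean and SD in black (n = 3). *Hspb7*, *Ide*, *Slc7a1*, *Psmd3* and *H2-Aa* have narrow groups that do not overlap, while the groups of *Rpl3* and *Bmp10* are wide.

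The base composition of the coding sequence moved with the fold change across all functions. Over 7890 members with an annotated coding sequence, the log2 fold change ran against the GC content of that sequence (Spearman's rho -0.41, across genes). In the lowest quintile of genes by coding GC (31.9% to 47.4%), 78.6% were higher in KO and the median log2 fold change was 0.16. In the highest quintile (57.8% to 75.4%), 27.8% were higher and the median was -0.14. Members whose KO libraries all exceeded all WT libraries made up 15.0% of the lowest quintile and 1.78% of the highest, and those with all KO libraries below made up 1.46% and 11.1%. The mRNA log2 fold change had a rho of 0.07 with coding GC over the 6479 genes tested in both.

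This gradient was carried by 2 of the 6 libraries. The deviation of a library from each gene's mean had a rho with coding GC of 0.44 in WT 2 and -0.56 in KO 2, and between -0.05 and 0.06 in the other libraries. Without both of them, rho was -0.07 and the medians of the lowest and highest quintiles were 0.05 and -0.02. A fit that took the smoothed coding GC trend of each library as an offset gave a rho of -0.00. That value was fixed in advance, because the trend was fitted to these same members. The offset also takes out any genotype difference that follows coding GC. The fit with the offset left 861 members without overlap where the fit without it had 1005. Of these, 654 were without overlap in both, in the same direction (65.1% of the 1005 and 76.0% of the 861). Both fits were added after the data were seen. The percentage of proline codons had a rho of -0.18 with the log2 fold change, and -0.03 with the offset. The median log2 fold change was 0.02 for genes with no run of 3 prolines and -0.04 for the 2081 genes with 1 or more, and -0.01 and -0.02 with the offset.

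**Figure D3:**
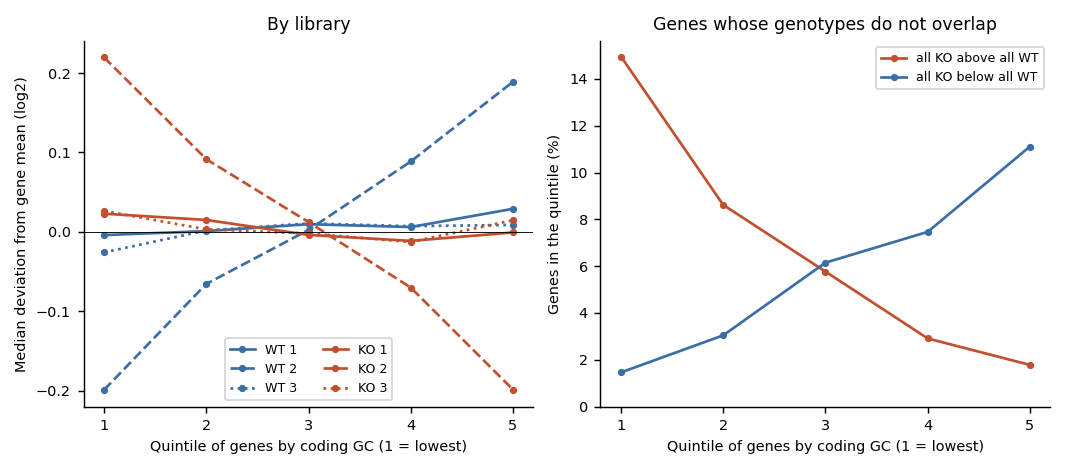
Left, the median deviation of each library from the gene mean (log2) in quintiles of members by coding GC, with WT in blue and KO in red. WT 2 and KO 2 (dashed) run in opposite directions and the other 4 libraries stay nearly flat. Right, the percentage of each quintile with all KO libraries above (red) or below (blue) all WT libraries.

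Short coding stretches of named genes at either end of the range show this base composition, with G and C in capitals. Each stretch is 30 bases from a single exon with a GC content near that of its whole coding sequence (GRCm38, GENCODE M21). The first 3 belong to the named nuclear genes of lowest coding GC among those with a positive log2 fold change. They are *Gm20594* (36.0%, chr6:79818260-79818289, plus strand), *Tmsb4x* (40.0%, chrX:167207992-167208021, minus strand) and *Cd36* (41.4%, chr5:17820562-17820591, minus strand).
Gm20594: GGaGGGttCaaCtGtCtCttatttttaatC
Tmsb4x: GatatGGCtGaGatCGaGaaattCGataaG
Cd36: CttGaaGaaGGaaCCaCtGCtttCaaaaaC
The next 3 belong to those of highest coding GC among genes with a negative log2 fold change. They are *Jph2* (67.1%, chr2:163397473-163397502, minus strand), *Synpo2l* (60.3%, chr14:20668166-20668195, minus strand) and *Vars* (59.9%, chr17:35001447-35001476, plus strand).
Jph2: GatGatGGCGGGGCGtattGtGGGGGCtGG
Synpo2l: atGGGtGCtGaGGaGGaGGtGCaGGtCaCa
Vars: tCCatCCtCtaCGtCtCtCCtCaCCCCGaC
The stretches hold 11, 12 and 12 G or C bases in the first set and 20, 18 and 18 in the second. With the GC offset the log2 fold change went from 1.00 to 0.59 for *Gm20594*, from 0.44 to 0.19 for *Cd36*, from -0.54 to -0.28 for *Jph2* and from -0.30 to -0.16 for *Vars*. With the offset it was -0.40 for *Hspb7*, 0.66 for *Ide*, 0.78 for *Slc7a1*, -1.12 for *Ip6k3* and -0.51 for *Synpo2l*.

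The members were then read by function, over 30 gene lists that held 809 of them. No gene of these lists passed the test, so the lists are described by their counts and medians, beside 50.4% higher and a median of 0.00 over all members. *Rpl3l* was kept out of the lists. Within every list of at least 30 genes the log2 fold change also ran against coding GC, with rho from -0.68 for 50 translation factors to -0.26 for 39 chromatin regulators. Without both number 2 libraries these values ranged from -0.36 (calcium handling and ion channels) to 0.37 (chromatin regulators), and 4 of the 15 lists had a positive rho.

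**Figure D4:**
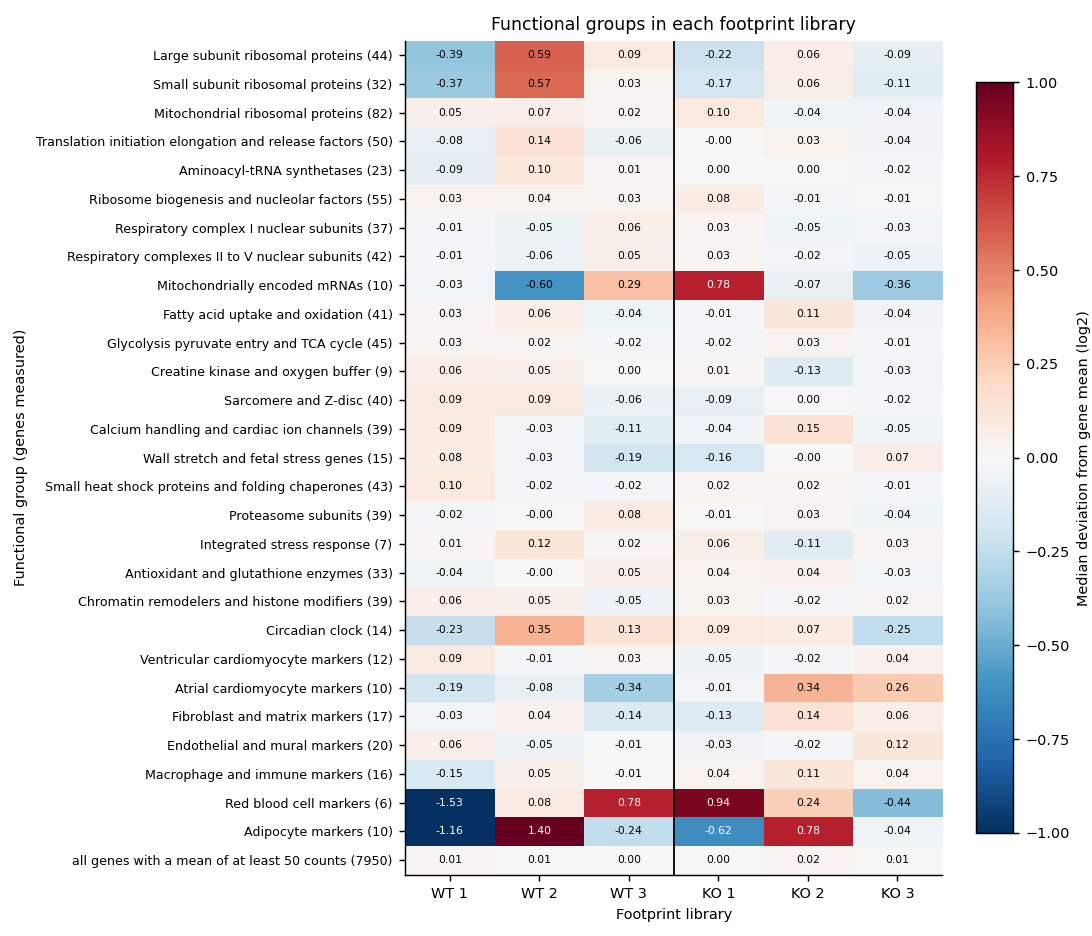
Median deviation from the gene mean (log2) of each functional group with at least 5 measured members (rows, number of genes in brackets) in each footprint library (columns). Colours saturate at 1. Ribosomal proteins and adipocyte genes stand out in WT 1 and WT 2, red blood cell genes in WT 1 and mitochondrially encoded mRNAs in KO 1 and WT 2.

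Cytosolic ribosomal proteins, the partners of RPL3L in the ribosome, leaned lower in KO, and the lean was lost without WT 2. Of 44 large-subunit genes, 40 were lower and 4 higher, with a median log2 fold change of -0.21, and of 32 small-subunit genes 27 were lower and 5 higher, with a median of -0.23. WT 2 was the highest of all 6 libraries for 40 of the 44 and 29 of the 32. Summed over the large subunit, levels were 4145, 7902 and 5467 CPM in WT and 4592, 5414 and 4864 CPM in KO, so the KO range lay inside the WT range. Without WT 2 the medians were 0.04 and 0.07, and without WT 1, the lowest library for 23 of the 44, they were -0.41 and -0.44. *Rps16* had the smallest p of the small subunit, with 116, 215 and 160 CPM in WT and 124, 119 and 103 CPM in KO (log2 fold change -0.50, SE 0.19, edgeR adjusted p = 0.83). Its groups overlapped, and 45.6% of its 28-base words occur in other genes, mainly pseudogenes. The mRNA medians of the subunits were -0.09 and -0.08.

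Other parts of the translation machinery were close to evenly split in direction. The 82 mitochondrial ribosomal proteins, which translate the mRNAs of the organelle, had 38 higher and 44 lower, a median of -0.02 and medians of -0.07 to 0.04 with libraries left out. Genotypes did not overlap in 7 of the 82 that were higher and 12 that were lower, against 6.75% and 5.89% of all members. An unadjusted p under 0.05 was found for 5 of them (6.10%, against 6.81% of all members). *Mrpl1* had 30.9, 28.5 and 34.7 CPM in WT and 42.6, 50.1 and 48.8 CPM in KO (log2 fold change 0.59, SE 0.18, edgeR adjusted p = 0.83), without overlap. *Mrpl38*, which lay lower in KO (-0.49, SE 0.15), had 94.3 to 120 CPM in WT and 71.5 to 81.7 CPM in KO. With the GC offset the value for *Mrpl1*, whose coding GC is 41.5%, was 0.35.

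Of 50 initiation, elongation and release factors, 22 were higher and 28 lower (median -0.02). *Eef2k*, the kinase that inhibits elongation factor 2, had 52.7, 50.6 and 55.8 CPM in WT and 37.1, 41.8 and 29.6 CPM in KO. Its groups did not overlap, at a log2 fold change of -0.55 (SE 0.18) in footprints and 0.04 (SE 0.30) in mRNA. *Eif5*, which promotes GTP hydrolysis at start codon recognition, had 0.53 (SE 0.18) with 39.1 to 40.3 CPM in WT and 46.95 to 63.5 CPM in KO. The 23 aminoacyl-tRNA synthetases lay between -0.30 and 0.26, and 0 of them had an unadjusted p under 0.05 against 6.81% of all members. Of 55 ribosome biogenesis factors, 29 were higher and 26 lower. *Bop1*, which acts in the maturation of large-subunit rRNA, had 50.6, 42.2 and 36.2 CPM in WT and 28.3, 28.3 and 28.7 CPM in KO (log2 fold change -0.60, SE 0.19, edgeR adjusted p = 0.83).

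The larger lists of energy metabolism genes had medians close to 0. The 45 genes of glycolysis, pyruvate entry and the TCA cycle lay between -0.24 and 0.22, and 0 of them had an unadjusted p under 0.05. Of 37 nuclear subunits of respiratory complex I, 16 were higher and 21 lower (median -0.01). *Ndufv2*, of the NADH-oxidising module, had 563, 434 and 582 CPM in WT and 628, 852 and 634 CPM in KO, at a log2 fold change of 0.42 (SE 0.15) that was 0.14 without both number 2 libraries. Of 42 nuclear subunits of complexes II to V, 14 were higher and 28 lower, with a median of -0.05. *Atp5b*, the catalytic beta subunit of ATP synthase, had 9535, 9034 and 9007 CPM in WT and 10060, 9998 and 9689 CPM in KO, groups that stood apart at a log2 fold change of 0.11 (SE 0.09).

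For fatty acid uptake and oxidation, 23 genes were higher and 18 lower (median 0.03). *Cd36*, the fatty acid transporter of the sarcolemma, had 1483, 1187 and 1380 CPM in WT and 1557, 2134 and 1789 CPM in KO (log2 fold change 0.44, SE 0.13, edgeR adjusted p = 0.83). KO 2 was the highest and WT 2 the lowest of these, and without both the value was 0.23. *Slc25a4*, the ADP/ATP carrier of the inner mitochondrial membrane, had 8947, 10370 and 8397 CPM in WT and 8011, 7107 and 7891 CPM in KO (-0.27, SE 0.10). It belongs to the list of creatine kinase and oxygen buffer genes, where 2 of 9 were higher and 7 lower. That list's median was -0.08, and 0.01 without both number 2 libraries. At an unadjusted p under 0.05 there were 2 genes (22.2%, against 6.81% of all members), both lower.

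The 10 mitochondrially encoded mRNAs analysed here, made and translated inside the organelle, varied with single libraries. Of these, 9 were higher in KO, with a median log2 fold change of 0.30, but all 10 were highest in KO 1 and 8 were lowest in WT 2. Their summed level was 32177, 23007 and 40113 CPM in WT and 52594, 30390 and 25093 CPM in KO. Without KO 1 the median was -0.19. *mt-Nd2*, a complex I subunit, had a log2 fold change of 0.46 (SE 0.24), and 0.06 at the lowest of the fits with a library left out.

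Sarcomere and Z-disc genes, the contractile apparatus, held more low p-values than the members as a whole. Of 40 measured, 13 were higher and 27 lower (median -0.13, between -0.14 and -0.09 with libraries left out), and 10 had an unadjusted p under 0.05 (25.0% against 6.81%), 8 of them lower. The footprint median was -0.09 with the GC offset and -0.09 without both number 2 libraries. Genotypes did not overlap in 4 of the 40 that were lower and 1 that was higher, against 5.89% and 6.75% of all members. In both directions together the share of all members was 12.6%. The list's mRNA median was -0.09. *Myl2*, the ventricular regulatory light chain, had 12750, 12480 and 14780 CPM in WT and 10810, 11260 and 10530 CPM in KO (log2 fold change -0.30, SE 0.09, edgeR adjusted p = 0.83). Every KO library of *Myl2* was below every WT library, and the same held for *Tnni3*, cardiac troponin I, at -0.26 (SE 0.09) and for *Csrp3*, the muscle LIM protein, at -0.23 (SE 0.11). *Synpo2l*, an actin-associated Z-disc protein, had 237, 245 and 171 CPM in WT and 144, 107 and 171 CPM in KO, where WT 3 and KO 3 were level (-0.63, SE 0.18). *Flnc* (-0.36), *Ldb3* (-0.31), *Cryab* (-0.43) and *Ankrd1* (-0.52) also had overlapping groups. *Fhl2*, a LIM-domain protein of the sarcomere, was the only member of the list with every KO library higher, at 1407, 1099 and 1296 CPM in WT and 1592, 1750 and 1586 CPM in KO (0.37, SE 0.12). *Myh6*, the main myosin heavy chain of the adult mouse heart, had 34669 ± 3502 CPM in WT against 35583 ± 3054 CPM in KO (mean ± SD, n = 3 each).

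Of 39 calcium handling and ion channel genes, 25 were higher, with a median of 0.07 that lay between 0.0027 (without WT 3) and 0.12 (without KO 3) with a library left out and was 0.02 without both number 2 libraries. At an unadjusted p under 0.05 there were 5 higher and 2 lower (12.8% and 5.13%, against 3.23% and 3.57% of all members). *Jph2*, which tethers the sarcoplasmic reticulum to the T-tubule, had the smallest p, with 144, 164 and 117 CPM in WT and 96.5, 94.3 and 101 CPM in KO (log2 fold change -0.54, SE 0.15, edgeR adjusted p = 0.83). Its mRNA value was 0.41 (SE 0.33). *Fxyd1* (phospholemman, a regulator of the sodium pump) was lower in every KO library, at -0.34 (SE 0.13). Higher in every KO library were *Cacna2d1*, a subunit of the L-type calcium channel (0.38, SE 0.16), *Kcnj2*, of the inward rectifier current (0.37, SE 0.16), *Sln* and *Gja5*. *Atp2a2*, the calcium pump of the sarcoplasmic reticulum, overlapped, at 28939, 20091 and 21699 CPM in WT and 25089, 30162 and 26326 CPM in KO.

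Both *Sln* (sarcolipin) and *Gja5* (connexin 40) are also among the atrial cardiomyocyte markers, the list with the largest absolute median of the 30. All 10 measured markers were higher in KO, against 50.4% of all members, with a median log2 fold change of 0.58. With libraries left out the median lay between 0.41 (without KO 2) and 0.56, and the 6 with measurable mRNA were higher there too (median 0.53). *Bmp10*, a ligand made mainly by the right atrium, had 57.0, 55.3 and 10.2 CPM in WT and 67.9, 192 and 139 CPM in KO (1.71, SE 0.45, edgeR adjusted p = 0.83). *Sln* had 38.9, 45.3 and 26.2 CPM in WT and 68.7, 47.2 and 53.9 CPM in KO (0.63, SE 0.22), and *Gja5* 10.8 to 16.7 CPM in WT and 17.65 to 24.7 CPM in KO. These 3 of the 10 had every KO library above every WT library, against 6.75% of all members, while *Dkk3* (0.70) and *Myl7* (0.33), the atrial light chain, overlapped. *Nppa*, atrial natriuretic peptide, had 1475, 1969 and 1407 CPM in WT and 1466, 1756 and 1993 CPM in KO. The sum of the list, 2489 to 3526 CPM in WT and 2876 to 3668 in KO, overlapped. WT 3 was the lowest library for 6 of the 10 genes and KO 2 the highest for 5. The part of atrial tissue in the values of *Sln*, *Gja5* and *Myl7* was not tested.

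**Figure D5:**
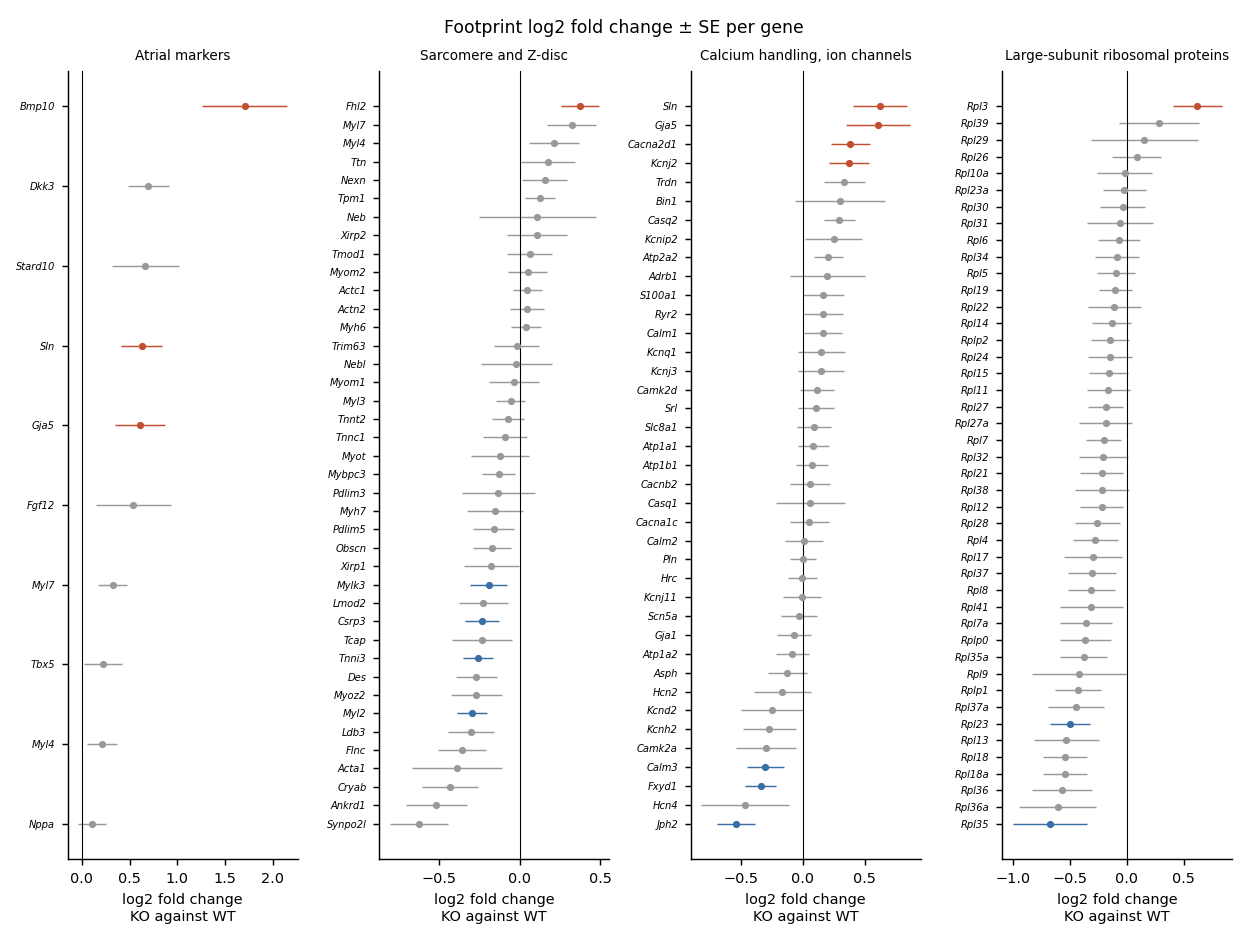
Footprint log2 fold change of each gene, KO against WT, with its SE (horizontal bars), in 4 groups. Red marks all KO libraries above all WT libraries, blue all below, and grey an overlap. All 10 atrial markers lie right of 0, 27 of 40 sarcomere genes and 40 of 44 large-subunit proteins left of it.

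Stress genes and chaperones were split in direction. Of 15 wall stretch and fetal genes, 7 were higher and 8 lower. *Nppb*, B-type natriuretic peptide, had 197, 146 and 228 CPM in WT and 116, 133 and 168 CPM in KO (log2 fold change -0.46, SE 0.18), with an mRNA value of -0.62 (SE 0.23). *Ankrd1*, a stretch-responsive Z-disc protein, had 1186, 1660 and 1643 CPM in WT and 867, 824 and 1443 CPM in KO, and KO 3 reached into the WT range. *Acta1* and *Myh7*, fetal isoforms used as stress markers, overlapped, with values of -0.39 (SE 0.28) and -0.15 (SE 0.18). Among 43 chaperones, 22 were higher and 21 lower, and the 3 with an unadjusted p under 0.05 (6.98%, against 6.81% of all members) were all small heat shock proteins that were lower, namely *Hspb7*, *Hspb1* (-0.40, SE 0.16) and *Cryab* (-0.43, SE 0.18). *Hspb1* had 494, 600 and 514 CPM in WT and 448, 297 and 477 CPM in KO, without overlap. The groups of *Cryab* overlapped, and its value was -0.24 without KO 2 and -0.18 without both number 2 libraries.

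Of 39 proteasome subunits, 17 were higher and 22 lower (median -0.05). *Psmd3*, of the regulatory lid, had 244, 231 and 227 CPM in WT and 179, 192 and 191 CPM in KO, with SDs of 8.7 and 7.1 CPM (-0.32, SE 0.12, edgeR adjusted p = 0.83). *Psmc3*, a base ATPase, and *Psmb5*, a catalytic core subunit, were also lower without overlap (-0.29 and -0.27), and *Psma3* and *Psmd11* were higher without overlap (0.31 and 0.19). Of 26 integrated stress response genes, 7 reached 50 counts, and 0 had an unadjusted p under 0.05. *Ddit4*, an mTORC1 inhibitor, had 46.9 to 62.7 CPM in WT and 37.2 to 93.8 in KO, with a log2 fold change of 0.36 (SE 0.26) in footprints and 1.81 (SE 0.60) in mRNA. Its mRNA level was very low, at 0.66 ± 0.45 CPM in WT against 2.47 ± 1.56 CPM in KO (mean ± SD, n = 3 each), and was not called. Antioxidant enzymes (19 higher, 14 lower), chromatin regulators (19 and 20) and clock genes (5 and 9) had 1 gene each at an unadjusted p under 0.05, namely *Txnrd2*, *Chd7* and *Tef*. These made up 3.03%, 2.56% and 7.14% of their lists, against 6.81% of all members.

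Markers of other cell types had medians of 0.09 for 17 fibroblast and matrix genes, 0.01 for 20 endothelial and mural genes and 0.03 for 16 macrophage and immune genes. The fibroblast median was 0.01 without KO 2, the highest library for 9 of the 17 genes, and 0.18 without KO 1, and the other 2 medians lay between -0.02 and 0.06 with a library left out. *H2-Aa*, the alpha chain of the MHC class II molecule I-A, had 98.1, 87.0 and 90.3 CPM in WT and 135, 127 and 132 CPM in KO, with SDs of 5.7 and 3.8 CPM. Its log2 fold change was 0.52 (SE 0.14, edgeR adjusted p = 0.83) in footprints and 0.50 (SE 0.21) in mRNA. *Cd74*, the invariant chain of the same molecules, had 297, 287 and 288 CPM in WT and 340, 353 and 430 CPM in KO (0.36, SE 0.13). Both stood apart in all libraries, whereas *Cd68*, a macrophage lysosomal protein, was lower in all KO libraries (-0.36, SE 0.18). *Tagln*, of smooth muscle, was lower without overlap, at 32.3 ± 3.9 CPM in WT against 22.1 ± 1.3 CPM in KO (mean ± SD, n = 3 each).

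Replicates disagreed most, among the 30 lists, in genes of fat and blood. Of 10 adipocyte markers, 8 were highest in WT 2 and 7 lowest in WT 1, and 0 kept their sign in all fits with a library left out. *Fasn*, fatty acid synthase, had 219, 3540 and 563 CPM in WT and 515, 1951 and 917 CPM in KO. *Scd1*, a fatty acid desaturase, had a log2 fold change of -0.98 (SE 0.68) that turned to 0.82 without WT 2. The markers summed to 539, 6627 and 1350 CPM in WT and 1076, 3481 and 1666 CPM in KO, a wider range within WT than between the genotypes. All 6 red blood cell genes were lowest in WT 1. *Hba-a1*, an alpha globin, had 197, 515 and 820 CPM in WT and 818, 568 and 358 CPM in KO.

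The median SD between replicates, 0.25 on the log2 scale over all members, was 1.15 for adipocyte and 0.95 for red blood cell markers. It was 0.55 for mitochondrially encoded mRNAs, 0.38 for both ribosomal subunits, 0.12 for ventricular markers and 0.11 for glycolysis and the TCA cycle. The share of genes that kept their sign with every library left out in turn was 9 of 10 for atrial markers, 62.5% for sarcomere genes, 62.2% for glycolysis and the TCA cycle, 34.1% for large-subunit proteins and 20.0% for mitochondrially encoded mRNAs, against 55.1% of all members.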

How the data were processed

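Footprint and RNA libraries of WT and Rpl3l-/- left ventricles were analysed, 3 per group. The deposited values are raw counts per transcript name, which the authors made, and the submitters' processing notes name cutadapt 1.18 and Bowtie2 2.4.2. The counting program, build, counted region, use of strand and treatment of multiply matching reads are not given in the sources used here. Of all names, 98.9% matched a GENCODE M21 (GRCm38) transcript, from which coding sequences were taken.

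Footprint libraries were fitted with a genotype term in edgeR 4.0.16 (R 4.3.3), with filterByExpr at a minimum count of 10, TMM scaling, the quasi-likelihood F test and Benjamini-Hochberg adjustment over all genes tested, threshold 0.05. RNA libraries were fitted likewise. The SE of a log2 fold change was taken as its absolute size over the root of its F statistic. Log2 levels for correlations and deviations had a prior count of 0.5 added, scaled to the library size. The fit was tested on simulated counts. Alternatives were median-of-ratios scaling, DESeq2 1.42.0, no filter, other count minimums, a replicate block and leaving out each library. A coding-GC offset (loess span 0.5) and leaving out both number 2 libraries were chosen after seeing the data.

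Members and gene lists were chosen with earlier results of these data known. Genes named were *Rpl3l* and *Rpl3*, called genes, the 5 per direction of smallest p among members whose genotypes do not overlap, and for each list the member of smallest p and that of most counts (levels only). Any further gene was picked once its values had been seen. The p-values set the genotype difference against the spread between these libraries.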

Additional observations from a re-analysis of the deposited data

How the results depend on the processing

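*Rpl3l* was called in every footprint fit run. The number of genes called in footprints, 1 in the analysis reported, was 5 with DESeq2 (*Rpl3l*, *Ide*, *Hspb7*, *Gm20594* and *Doc2a*), 60 with no filter on low counts (13 higher) and 1 to 2 with each library left out, the second being *Gm20594* without WT 2 and *Doc2a* without WT 3. Among members it was 4 with DESeq2, 55 with no filter and 1 to 2 with each library left out. Without the filter, 15922 genes were tested in place of 11153, and the cause of the higher count was not tested. Besides *Rpl3l*, *Ide*, *Hspb7* and *Gm20594*, the named genes *Rpl3*, *Slc7a1*, *Tmsb4x*, *Inka2* and *Ip6k3* were then called, at edgeR adjusted p of 0.00028 to 0.042. In RNA, 4 genes were called with no filter. With the replicate number as a block, 4 genes were called in footprints, 3 of them members (*Rpl3l*, *Slc34a1* and *Uap1*), and all 4 were lower. Deviations of same-numbered WT and KO footprint libraries correlated at 0.069, 0.014 and 0.0047 across genes. These values cannot tell whether the numbers pair the libraries, because WT 2 and KO 2 had opposite trends with coding GC. The fit reported above used no block. Members without overlap numbered 1534 to 2047 with each library left out and 2408 (1227 higher) without both number 2 libraries, where fewer libraries have to be separated. Among named genes, the log2 fold change of *Scd1* lay between -1.62 and 0.82 with each library left out and that of *Cyp2e1* between -1.12 and 0.0081. Both turned positive without WT 2, and *Scd1* also without both number 2 libraries (0.18). Depth limits the low genes, whose median SE at means of 50 to 60 counts was 0.35.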

Other observations

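Several genes with known roles in kidney and other metabolism were highest in WT 1, and among the KO libraries they were highest in KO 1. *Slc34a1*, the sodium-phosphate cotransporter of the proximal tubule, had 121, 31.9 and 16.3 CPM in WT and 26.8, 8.50 and 10.3 CPM in KO. *Gatm*, which makes the creatine precursor guanidinoacetate, had 79.4, 25.3 and 15.65 CPM in WT and 27.6, 9.24 and 21.6 CPM in KO. *Uap1*, an enzyme of UDP-N-acetylglucosamine synthesis, had 1743, 447 and 588 counts in WT and 1062, 361 and 333 counts in KO. The proximal tubule markers *Slc5a12*, *Slc22a6*, *Slc22a8*, *Kap* and *Miox* had 0 counts in all 6 footprint libraries. Of the others in that list of 12, *Slc5a2* and *Umod* had 0 to 7 counts per library and *Cubn* 11 to 33. *Slc27a2* went the other way, with 4, 10 and 2 counts in WT and 22, 39 and 21 in KO. Among the 3 markers that reached a mean of 50 counts, 1 was higher (*Aqp1*, 0.18) and 2 were lower. Of the liver markers, *Alb*, the gene of serum albumin, had 0 to 50 counts per library. *Trf*, the gene of transferrin, had 712 to 1101 and *Cyp2e1*, a cytochrome P450, had 155 to 498. *Apoa1*, *Apoa2*, *Ttr*, *Serpina1a*, *Serpina1b*, *Fgb*, *Fga*, *Mup20* and *Apob* had 0 to 24 counts per library.

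*Doc2a*, a calcium sensor of vesicle release, lay below the 50-count mean. It had 51, 58 and 15 counts in WT and 4, 1 and 1 counts in KO, with a log2 fold change of -4.96 in DESeq2 (adjusted p = 2.3e-05). KO 2 and KO 3 lay below the detection floor of 3 counts, so the size of this fold change is uncertain. The edgeR fit reported above did not call *Doc2a*.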
